A study of Mus musculus with 12 samples.

Results

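Unstimulated ("ex vivo") regulatory T cells (Treg) of mice with Ikaros deleted in Treg were compared with wild-type (WT) Treg by RNA sequencing, in 3 libraries of each genotype. These 6 of the 12 libraries of the series were chosen by their labels. Per the labels, each library came from 1 mouse, as CD4+ cells of the spleen sorted for yellow fluorescent protein (YFP). All animals carried Cre recombinase fused to YFP at Foxp3, the lineage gene of Treg, so that the WT controls shared this allele. The knockout animals (Ikzf1 cKO) also carried a loxP-flanked Ikzf1, which is removed only in cells that express the Cre. The other 6 libraries came from the same genotypes after 4 h on antibodies to CD3 and CD28, each at 1 µg/ml, and are used here to estimate the spread and to set an effect ex vivo beside the effect after stimulation. The mice were 6 to 8 weeks old and matched for age, and no sex is given. Of the 36222 genes in the table, 13318 reached a mean of at least 5 TPM (transcript abundance scaled to a fixed total per library) in at least 1 of the 4 groups, and these were scaled together and tested.

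Ikaros, the product of Ikzf1, is a zinc finger transcription factor of lymphocytes that binds DNA as a dimer and recruits chromatin remodelling complexes such as NuRD, through which it often represses genes. Treg restrain other immune cells through Foxp3, contact receptors and cytokines such as interleukin 10. Resting Treg recirculate through lymphoid organs with naive T cell genes such as Klf2 and Lef1 switched on, whereas effector Treg switch these off and express Irf4, Prdm1, inhibitory receptors and tissue homing genes.

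The recovered depth was 11822714 to 20247649 reads per ex vivo library. A single transcript, Gm10800, held between 17.7% and 39.8% of the TPM of an ex vivo library, and of these the share was highest in WT ex vivo 2. In the stimulated libraries, which enter the same fit, it held between 32.6% and 55.9%. The library WT ex vivo 3 held 179 TPM of Xist against at most 1.2 TPM in the other 5, so the sexes were not balanced. On chromosome X 15 of 342 tested genes (4.39%) were called against 5.29% of all tested genes. This share does not measure an effect of sex on genes of other chromosomes, and the effect of sex on the calls was not tested. Each log2 change below is cKO minus WT, taken as log2(scaled TPM + 1) so that genes near 1 TPM seem to change less than they do, with its standard error (SE) and a limma p adjusted over all 13318 genes. A gene is said to rise or fall where this p was under 0.05. Ifitm3, Tnfsf13b, Il9r, Cx3cl1, Itgb5, Ctnnd1, Maml3, Ier3, Slc43a1, Tmem176a and Tmem176b averaged under 5 TPM in both WT groups and were tested only because of their cKO groups, where they were higher, so a count that holds them is no support for its list. In bulk RNA, fewer cells of a kind and less RNA per cell cannot be told apart.

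Ikzf1 itself (ENSMUSG00000018654, mm9 chromosome 11, 11585006 to 11672929) was measured at 125, 83.8 and 106 TPM in WT and 44.3, 38.8 and 42.6 TPM in cKO. The groups did not overlap, and the mean in cKO came to 40.0% of that in WT. An exact two-sided permutation test over these 6 libraries gave p = 0.1, the smallest value that 3 against 3 can give. In the fit across all genes Ikzf1 fell by 1.52 (SE 0.11, adjusted p 5.45e-05). Its relative Ikzf4 (Eos) was at 36.4 ± 4.96 TPM in WT and 65.3 ± 2.81 TPM in cKO (mean ± SD, n = 3, as for all such values) and rose by 0.60 (SE 0.11, adjusted p 0.0119), although without cKO ex vivo 1 the adjusted p was 0.0526. Ikzf2 (Helios) was at 132 ± 26.7 TPM in WT and 213 ± 17.8 TPM in cKO (log2 change 0.46, SE 0.14, adjusted p 0.0868) and did not pass the test. Ikzf3 (Aiolos) and Ikzf5 (Pegasus) had log2 changes of 0.33 (adjusted p 0.218) and -0.13 (adjusted p 0.508), the latter of the opposite sign with the TPM as deposited. Hence 1 of the 4 other family members rose and none fell.

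The cells of both genotypes had the marker genes of Treg. Foxp3 was at 161 ± 42.0 TPM in WT and 171 ± 5.44 TPM in cKO (log2 change -0.12, SE 0.18, adjusted p 0.804), and Ctla4 had a log2 change of -0.17 (adjusted p 0.526). Both were above 0 with the TPM as deposited, at 0.11 and 0.064. Among 19 core Treg genes, 3 rose and none fell, with a median log2 change of 0.26, against 5.29% of all tested genes called in either direction. The 3 were Socs2, a feedback inhibitor of cytokine signalling, Il10ra, a receptor chain for interleukin 10, and Swap70, a regulator of the actin skeleton. With a library left out 1 or 2 of the core genes were called, since Swap70 was kept in 0 of 6 such fits (adjusted p up to 0.126 without WT ex vivo 3) and Il10ra in 2 of 6 (up to 0.0816 without WT ex vivo 3). Summed over each list, T cell markers stood at 3277 TPM or higher in each of the 6 libraries, NK cell markers at 21.4 TPM or lower and CD8 T cell markers at 13 TPM or lower. Myeloid markers stood at 35.2 to 69.3 TPM. B cell markers stood at 284 to 367 TPM in WT and 430 to 522 TPM in cKO, so that their sum was higher in every cKO library. These are deposited TPM, and 2 to 5 of the 12 B cell markers reached 5 TPM in a library. The part of B cell RNA in the changes reported here was not tested.

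In all, 482 genes rose (3.62% of those tested) and 222 fell (1.67%), and the median log2 change over all tested genes was -0.01, with quartiles of -0.16 and 0.16. Each list count below is to be read beside these shares, or beside 5.29% for both directions together. The lists were chosen with earlier results of these data known, so a count above these shares is no independent test of a list. This split depended on the scaling, since 68.47% of the called genes rose after scaling on the tested genes and 95.24% of them with the TPM as deposited, where the median of all genes moved to 0.21. All 704 called genes had 3 cKO and 3 WT scaled values that did not overlap, which 21.5% of all tested genes also had. The changes were mostly of moderate size, since 111 genes (0.833%) were called and differed by over 2-fold. Without WT ex vivo 3, cKO ex vivo 1, cKO ex vivo 2 or cKO ex vivo 3 the calls numbered 373, 363, 452 and 331. With the TPM as deposited they numbered 273, and 57 when genes down to 1 TPM were tested. The plot of the gene lists shows the spread of the members of 16 lists around the median of all genes.

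**Figure D1:**
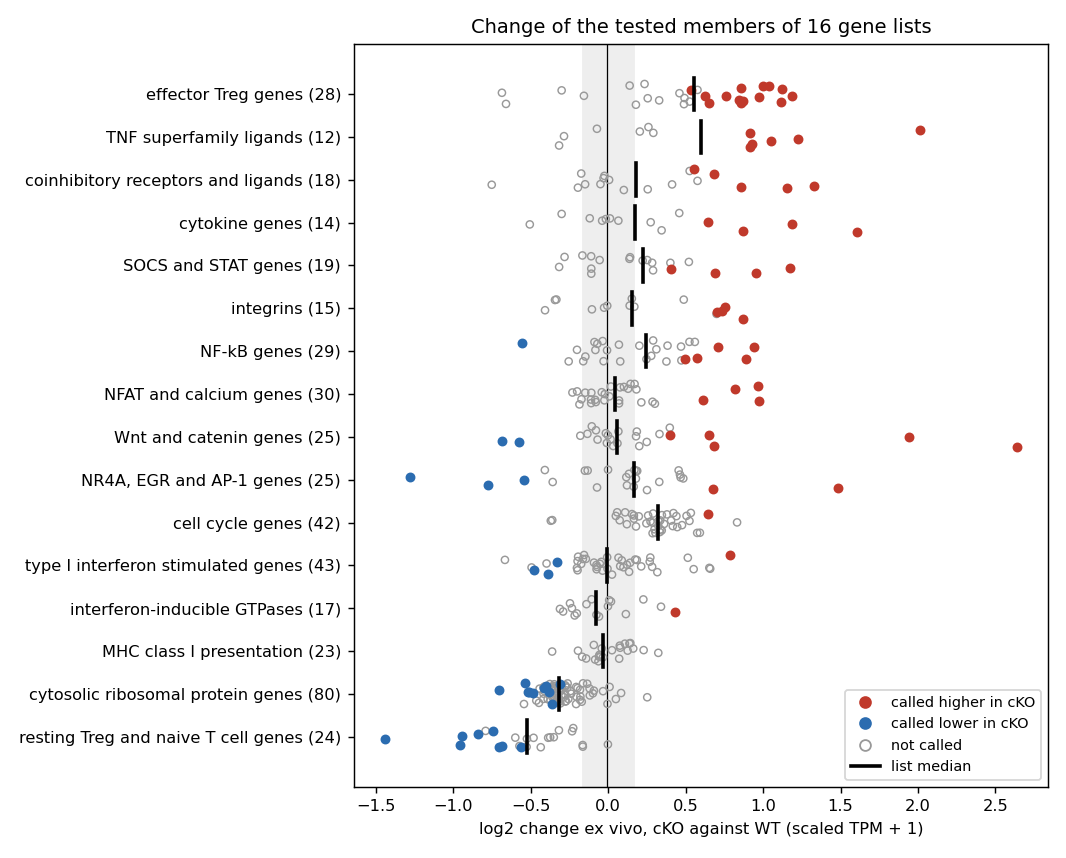
Log2 change (cKO minus WT, ex vivo; scale of log2(scaled TPM + 1)) of the tested members of 16 gene lists, 1 point per gene. Red points rose, blue points fell and open grey points did not pass the test; black bars are list medians, the grey band spans the quartiles of all 13318 tested genes and the line is their median. Effector Treg genes and TNF ligands lie to the right with medians of 0.56 and 0.60, and resting genes lie to the left with a median of -0.53.

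Effector Treg genes were, by number, the list with the most members called. Of 32 genes listed, 28 passed the filter on low values. Among these, 14 rose and none fell, with a median log2 change of 0.56 beside -0.01 for all tested genes and 3.62% of them called higher. In 20 of the 28 the libraries did not overlap, 18 of them higher in cKO, beside 21.5% and 11.6% of all tested genes on the same scaled values. Irf4, a transcription factor needed for effector Treg, was at 43.4, 31.6 and 41.7 TPM in WT and 103, 98.6 and 99.3 TPM in cKO. Every cKO library was more than double any WT library, and Irf4 rose by 1.12 (SE 0.13, adjusted p 0.00123). Bhlhe40, a transcriptional repressor induced by T cell receptor signals, was among the most abundant genes called, at 571, 321 and 428 TPM in WT and 1202, 1056 and 1040.5 TPM in cKO. The groups did not overlap, and it rose by 1.12 (SE 0.17, adjusted p 0.00447). Tbx21, which encodes T-bet, the regulator of type 1 immunity, was low at 5.11, 4.46 and 3.95 TPM in WT and 11.5, 12.5 and 12.2 TPM in cKO. It rose by 1.04 (SE 0.12, adjusted p 0.000932), and its target Cxcr3, a chemokine receptor that guides T cells to inflamed tissue, rose by 1.00 (SE 0.10, adjusted p 0.000278).

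Other effector genes rose by less or from lower levels. Il1rl1, the receptor for interleukin 33 on tissue Treg, was at 4.18, 4.04 and 3.90 TPM in WT and 10.3, 9.89 and 11.2 TPM in cKO and rose by 0.97 (SE 0.15, adjusted p 0.00477). Ebi3, a subunit of the cytokine interleukin 35, was at 24.4, 18.7 and 17.8 TPM in WT and 53.6, 52.9 and 59.9 TPM in cKO. It rose by 1.19 (SE 0.19, adjusted p 0.00494), with no overlap. Prdm1 (Blimp-1), a terminal differentiation factor, rose by 0.76 (SE 0.13, adjusted p 0.00765). Ahr, the aryl hydrocarbon receptor, rose by 0.85 (SE 0.12, adjusted p 0.00336). Klrg1, an inhibitory receptor of terminally differentiated cells, rose by 0.86 (SE 0.10, adjusted p 0.000724). Il10 was at 39.3, 37.6 and 27.4 TPM in WT and 66.0, 78.6 and 81.7 TPM in cKO, without overlap, and rose by 0.87 (SE 0.21, adjusted p 0.0366). Its call was kept in 1 of 6 fits that each left out 1 library, and the adjusted p reached 0.127 without WT ex vivo 3. Across these 6 fits, between 10 and 13 of the 28 members were called, and 10 with the TPM as deposited. None were called when genes down to 1 TPM were tested, a setting under which limma called 57 of all genes and 2330 had an unadjusted p under 0.05.

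Transcription factors of helper lineages, a list that shares Irf4, Bhlhe40, Tbx21 and Maf with the effector genes, had 6 of 29 tested members higher and none lower, with a median of 0.10. Runx2, a factor of the Runt family, rose by 0.82 (SE 0.15, adjusted p 0.00892). Bcl6, the regulator of follicular T cells, had a log2 change of 0.27 (adjusted p 0.518). In the list of Bcl6 and follicular genes 3 of 14 rose and none fell. These were Angptl2, a secreted protein of the angiopoietin family (log2 change 1.38, SE 0.17, adjusted p 0.00138), S1pr2, a receptor that retains cells in germinal centres (log2 change 0.62, SE 0.09, adjusted p 0.00329), and Pdcd1.

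The plot of the genes that rose gives the library values of the TNF ligands, the effector factors, Lag3, Cd80 and Ifng on 1 scale.

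**Figure D2:**
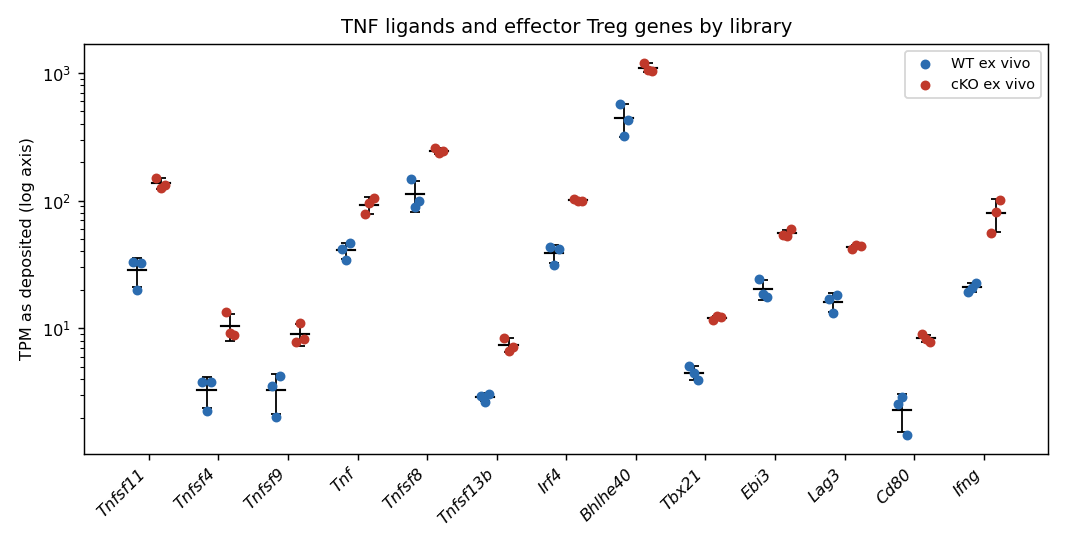
Deposited TPM (log axis) of 13 genes in each of the 3 WT and 3 cKO ex vivo libraries, with mean and SD. Genes run from TNF ligands to effector factors, Lag3, Cd80 and Ifng. Tnfsf11 lies between 20.1 and 33.0 TPM in WT and at 125 TPM or higher in cKO.

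T cells signal to other immune and stromal cells by ligands of the tumour necrosis factor (TNF) superfamily. Of 12 tested members 6 rose and none fell, which is 50% against 3.62% of all tested genes called higher. Of the 6, Tnfsf13b passed the filter only through the cKO groups. The median log2 change was 0.60, and the 6 were called in every fit that left out a library and with the TPM as deposited, but only 1 was called with genes down to 1 TPM tested. Tnfsf11 (RANKL), which drives osteoclasts and the maturation of some epithelial and dendritic cells, was at 33.0, 20.1 and 32.3 TPM in WT and 151, 125 and 133 TPM in cKO. The lowest cKO library was over 3 times the highest WT library, and Tnfsf11 rose by 2.01 (SE 0.17, adjusted p 0.000126). Tnf was at 41.8, 34.1 and 46.2 TPM in WT and 78.1, 95.1 and 104 TPM in cKO, also without overlap, and rose by 0.93 (SE 0.14, adjusted p 0.00365). Tnfsf8 (CD30 ligand) was the most abundant of the 6, at 148, 89.4 and 99.5 TPM in WT and 258, 234 and 244 TPM in cKO, and rose by 0.92 (SE 0.15, adjusted p 0.00637). In neither gene did any cKO library fall within the WT range.

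The other called ligands rose from low levels. Tnfsf4 (OX40 ligand), a costimulator for T cells that carry OX40, was at 3.81, 2.25 and 3.80 TPM in WT and 13.4, 9.17 and 8.85 TPM in cKO and rose by 1.22 (SE 0.22, adjusted p 0.00921). Tnfsf9 (4-1BB ligand) was at 3.56, 2.04 and 4.27 TPM in WT and 7.77, 11 and 8.25 TPM in cKO and rose by 1.05 (SE 0.19, adjusted p 0.0088). Tnfsf13b (BAFF), the B cell survival factor, was at 2.95, 2.67 and 3.07 TPM in WT and 8.44, 6.69 and 7.19 TPM in cKO and rose by 0.91 (SE 0.16, adjusted p 0.00834). For these genes each cKO library was above each WT library. The abundant Ltb (lymphotoxin beta) and Cd40lg did not pass the test, with log2 changes of -0.32 (adjusted p 0.25) and 0.26 (adjusted p 0.602). Of the receptors of the family 1 of 15 was higher, 1 was lower and the median was -0.11 (0.12 with the TPM as deposited), with no test of receptors against ligands. Tnfrsf4 (OX40), the receptor for the Tnfsf4 product, was at 280.1, 173 and 257 TPM in WT and 496, 439 and 447 TPM in cKO and rose by 0.74 (SE 0.17, adjusted p 0.0295). This call was kept in 1 of 6 fits leaving out a library (adjusted p up to 0.112 without cKO ex vivo 1). Tnfrsf25 (DR3), a costimulatory receptor, fell by 0.76 (SE 0.09, adjusted p 0.00147). Tnfrsf18 (GITR) and Tnfrsf9 (4-1BB) did not pass, with log2 changes of 0.53 (adjusted p 0.0638) and 0.52 (adjusted p 0.101).

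The TAM receptors, which bind dying cells through the ligands Gas6 and protein S, had 3 tested genes on their list. Axl was at 10.8, 9.73 and 10.8 TPM in WT and 61.1, 70.3 and 69.6 TPM in cKO. Each cKO library was over 5 times each WT library, and Axl rose by 2.34 (SE 0.12, adjusted p 4.63e-06). Pros1, which encodes protein S, was at 2.84 ± 0.369 TPM in WT and 5.61 ± 0.663 TPM in cKO and did not pass (log2 change 0.58, SE 0.18, adjusted p 0.0995).

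The list of coinhibitory receptors and ligands holds genes that dampen T cell responses and also costimulators such as Icos. Of 18 tested members 5 rose (27.8%, against 3.62% of all tested genes called higher) and none fell, with a median of 0.18. Without cKO ex vivo 1 the number was 3. Lag3, an inhibitory receptor for MHC class II, was at 17, 13.1 and 18.4 TPM in WT and 41.5, 45.1 and 43.8 TPM in cKO. It rose by 1.15 (SE 0.11, adjusted p 0.000278), and no library overlapped. Cd80, a ligand of CTLA-4, CD28 and PD-L1, was at 2.56, 2.91 and 1.46 TPM in WT and 8.97, 8.29 and 7.89 TPM in cKO. Its WT ex vivo mean of 2.31 TPM was under the filter of 5 TPM, and it rose by 1.33 (SE 0.22, adjusted p 0.00587). Cd274 (PD-L1) and Pdcd1 (PD-1) had log2 changes of 0.68 (adjusted p 0.014) and 0.55 (adjusted p 0.0273). The former was kept in 4 of 6 fits without a library (adjusted p up to 0.0605 without cKO ex vivo 1) and the latter in 2 of 6 (up to 0.101 without cKO ex vivo 1). The abundant Icos, a costimulator, and Tigit, an inhibitory receptor, did not pass (log2 changes 0.25, adjusted p 0.335, and 0.53, adjusted p 0.0577).

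Of 35 cytokine genes, 14 passed the filter and 4 rose, with none lower. Besides Il10 and Ebi3 these were Ifng and Csf1. Ifng, the effector cytokine of type 1 immunity, was at 19.4, 20.8 and 22.6 TPM in WT and 56.0, 80.7 and 102 TPM in cKO. It rose by 1.60 (SE 0.26, adjusted p 0.00616), and each cKO library was more than double each WT library. Csf1, the growth factor of macrophages, rose by 0.64 (SE 0.09, adjusted p 0.00369). Among 8 tested chemokines 2 rose, Cxcl10, a ligand of CXCR3 (log2 change 0.98, SE 0.16, adjusted p 0.00559), and Cx3cl1 (fractalkine), whose call was kept in 1 of 6 fits without a library (log2 change 1.48, SE 0.33, adjusted p 0.0272; adjusted p up to 0.14 without cKO ex vivo 1). Of the 8 chemokines 5, Cx3cl1 among them, passed the filter on low values only through the cKO groups.

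Cytokine receptors rose in 5 of 25 tested members and fell in 1. The rises numbered 2 without cKO ex vivo 1 and 3 without WT ex vivo 3, cKO ex vivo 2 or cKO ex vivo 3, and 1 of the 5, Il9r, had passed the filter only through cKO. The single fall was Ifngr1, the ligand-binding chain of the interferon gamma receptor, at 268, 155 and 173 TPM in WT and 126, 114 and 108 TPM in cKO. It fell by 0.97 (SE 0.15, adjusted p 0.00498), opposite in sign to Ifng. Il18r1 and Il9r, which bind interleukins 18 and 9, rose (log2 change 0.65, SE 0.11, adjusted p 0.00559; log2 change 0.88, SE 0.16, adjusted p 0.00892). The Il9r call was kept in 5 of 6 fits without a library (adjusted p up to 0.0567 without cKO ex vivo 1). Among SOCS and STAT genes, the inhibitors and carriers of cytokine signals, 4 of 19 rose and none fell, with 1 rise without cKO ex vivo 1 and 2 without WT ex vivo 3 or cKO ex vivo 3. All 4 were inhibitors, and Socs2 (log2 change 1.17, SE 0.15, adjusted p 0.00147) and Socs3 (log2 change 0.95, SE 0.18, adjusted p 0.0119) rose most. The Socs3 call was kept in 4 of 6 fits (adjusted p up to 0.0524 without cKO ex vivo 1).

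Of 42 genes of the T cell receptor complex and its proximal kinases and adaptors, 1 rose and 1 fell. This is 4.76%, near the 5.29% of all tested genes called, and 11 had an unadjusted limma p under 0.05. After scaling the median was 0.00 (21 members on either side of 0). With the TPM as deposited, 10 had every cKO library above every WT library and 0 had the reverse. The gene that rose was Malt1, a protease that links the receptor to NF-kB (log2 change 0.67, SE 0.12, adjusted p 0.00858). NF-kB genes rose in 5 of 29 tested members, fell in 1 and had a median of 0.25. Nfkbia, the inhibitor that NF-kB itself induces, was at 596, 425 and 598 TPM in WT and 1181, 1067 and 1250.3 TPM in cKO. It rose by 0.89 (SE 0.14, adjusted p 0.00559), with no overlap, and the related inhibitor Nfkbie rose by 0.94 (SE 0.15, adjusted p 0.00492). The subunit gene Nfkb1 did not pass (log2 change 0.38, adjusted p 0.166). The number of NF-kB genes called higher was 11 with quantile scaling, 2 with the TPM as deposited, 2 without WT ex vivo 3 or cKO ex vivo 1, and 3 without WT ex vivo 2 or cKO ex vivo 3. NFAT and calcium genes rose in 4 of 30 members, with Nfat5, a factor of the NFAT family, at 0.97 (adjusted p 0.00328), Atp2b4, a calcium pump, at 0.97 (adjusted p 0.000932) and Orai1, a calcium channel, at 0.82 (adjusted p 0.00637).

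The NR4A, EGR and AP-1 genes, early targets of receptor signals, did not move as a block, since 2 of 25 rose and 3 fell. With a library left out 1 or 2 rose and, except without WT ex vivo 2, 1 fell. Jun, an AP-1 subunit, was at 485, 388 and 710.4 TPM in WT and 195, 228 and 344 TPM in cKO. The groups did not overlap, and it fell by 1.28 (SE 0.22, adjusted p 0.00696). Nr4a1, often used as a reporter of receptor signals, was at 1089, 692 and 1145 TPM in WT and 688, 636 and 642 TPM in cKO, where the highest cKO library lay just under the lowest WT library. It fell by 0.78 (SE 0.17, adjusted p 0.0251), a call kept in 1 of 6 fits without a library (adjusted p up to 0.0886 without cKO ex vivo 3). Ier3, an early response gene linked to cell survival, rose by 1.48 (SE 0.27, adjusted p 0.0113). Fos and Junb, the abundant partners of Jun, had log2 changes of -0.41 (adjusted p 0.536) and -0.36 (adjusted p 0.284). Among the dual specificity phosphatases that end MAP kinase signals, Dusp14 rose by 1.36 (SE 0.12, adjusted p 0.000155) and Dusp10 fell by 0.93 (SE 0.23, adjusted p 0.0416). The latter call was kept in 2 of 6 fits (adjusted p up to 0.141 without cKO ex vivo 3).

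Adhesion genes rose in part. Integrins had 4 of 15 tested members higher and none lower. Itgav, the alpha V chain that takes part in the activation of TGF-beta, rose by 0.87 (SE 0.16, adjusted p 0.00978). Itga5, which pairs with Itgb1 to bind fibronectin, rose by 0.76 (SE 0.10, adjusted p 0.00247), and Itgb1 rose by 0.70 (SE 0.09, adjusted p 0.00173). Itgb5 was kept in 1 of 6 fits without a library (log2 change 0.73, SE 0.18, adjusted p 0.0455; adjusted p up to 0.156 without cKO ex vivo 2). In the list of S100, annexin and galectin genes, many of them abundant in effector and memory T cells, 3 of 19 rose and 1 fell. The fall was Crip1, a LIM domain protein, kept in 3 of 6 fits without a library (adjusted p up to 0.0768 without cKO ex vivo 3), and of the rises S100a4 was kept in 2 of 6 (up to 0.162 without cKO ex vivo 1). Ahnak, a very large scaffold protein, rose by 1.08 (SE 0.12, adjusted p 0.000845) and Anxa2, a membrane binding annexin, rose by 0.84 (SE 0.12, adjusted p 0.00316).

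Wnt and catenin genes changed in both directions. Of 59 listed, 25 passed the filter, 5 of these rose, 2 fell and the median was 0.06. Without cKO ex vivo 3 the rises numbered 3. Ctnnd1 (p120 catenin), which stabilises cadherins, was at 2.87, 3.50 and 2.44 TPM in WT and 14.2, 19.2 and 16.1 TPM in cKO. No library overlapped, and it rose by 1.94 (SE 0.19, adjusted p 0.000338). Wisp1, a secreted matricellular protein induced by Wnt, rose by 2.64 (SE 0.14, adjusted p 5.94e-06). Lef1, a nuclear partner of beta-catenin that is also a naive T cell gene, was at 71.0, 45.3 and 54.6 TPM in WT and 41.1, 43.7 and 37.3 TPM in cKO and fell by 0.69 (SE 0.09, adjusted p 0.00173). The ligases that remove Wnt receptors split, since Rnf43 rose by 0.69 (SE 0.11, adjusted p 0.00637) and Znrf3 fell by 0.57 (SE 0.09, adjusted p 0.0041). Axin2, a Wnt feedback gene (log2 change 0.40, SE 0.08, adjusted p 0.0159), and Ctnna1, alpha-catenin (log2 change 0.65, SE 0.13, adjusted p 0.0154), were each called in 4 of 6 fits without a library (adjusted p up to 0.0742 without cKO ex vivo 3 and 0.066 without cKO ex vivo 3).

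TGF-beta and activin genes had 5 of 25 tested members higher, 2 lower and a median of -0.01 (0.22 with the TPM as deposited). The rises numbered 3 without WT ex vivo 3 or cKO ex vivo 1, and 1 fell with any 1 library left out. The receptor genes differed among themselves. Bmpr2, a receptor for bone morphogenetic proteins, rose by 0.85 (SE 0.13, adjusted p 0.0049), and Acvr1b, an activin receptor, fell by 0.45 (SE 0.08, adjusted p 0.00792). Tgfbr1, the TGF-beta type I receptor, had a log2 change of -0.35 with an adjusted p of 0.0433, and was called in 0 of 6 fits without a library (adjusted p up to 0.139 without cKO ex vivo 3). Furin, the protease that matures TGF-beta precursors, rose by 0.69 (SE 0.12, adjusted p 0.00924). In the Notch list 3 of 22 members rose, of which Maml3 passed the filter only through the cKO groups, and with a library left out at most 1 was called.

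Genes of resting Treg and naive T cells lay on the other side. All 24 listed were tested and all 24 had a log2 change below 0, with a median of -0.53. Of these 8 fell and none rose, against 1.67% of all tested genes called lower. The list, which holds Ms4a4b and Ms4a6b, was chosen with earlier results of these data known, so these counts are no independent support for it. In 18 the scaled values did not overlap and were lower in cKO, as in 9.95% of all tested genes. Klf2, a transcription factor that keeps T cells quiescent and recirculating, was among the most abundant genes called, at 1514, 1045 and 1704 TPM in WT and 610.1, 564 and 644 TPM in cKO. Every cKO library was below every WT library, and it fell by 1.44 (SE 0.15, adjusted p 0.000482). S1pr1 and Ccr7, which guide exit from and entry to lymphoid tissue, had log2 changes of -0.60 (adjusted p 0.0833) and -0.57 (adjusted p 0.211) and did not pass.

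Further members of the resting list fell. Ms4a4b, a tetraspanning membrane protein of naive T cells, was at 70.9, 53.8 and 77.2 TPM in WT and 39.4, 40.0 and 41.4 TPM in cKO without overlap, and fell by 0.95 (SE 0.10, adjusted p 0.000619). Treml2, a receptor of the TREM family, fell by 0.84 (SE 0.12, adjusted p 0.00336). Cd55, an inhibitor of complement, fell by 0.95 (SE 0.18, adjusted p 0.0128), a call lost without 1 library (adjusted p up to 0.0591 without cKO ex vivo 3). With a library left out, 7 to 9 of the 24 were called lower. With the TPM as deposited 19 of the 24 were below 0, 6 had every cKO library below every WT library and 1 was called. There the list median was -0.29 beside 0.21 for all tested genes, against -0.53 beside -0.01 after scaling, so the list stood below the median of all genes on both scales. Because TPM has a fixed total, the Gm10800 share takes from other genes, and among the 6 ex vivo libraries it was highest in WT ex vivo 2.

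**Figure D3:**
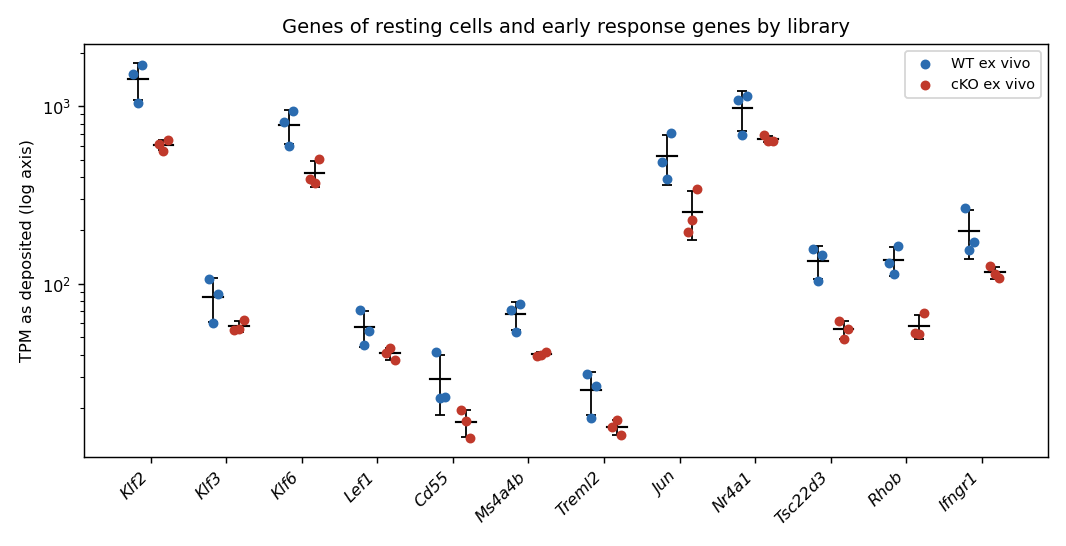
Deposited TPM (log axis) of 12 genes in each of the 3 WT and 3 cKO ex vivo libraries, with mean and SD. The KLF genes, naive T cell genes, Jun, Nr4a1, Tsc22d3, Rhob and Ifngr1 are lower in cKO; the WT library with the lowest level of most of them is WT ex vivo 2, and for Klf3 it lies among the cKO libraries.

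The KLF family, zinc finger factors to which Klf2 belongs, had 3 of 10 tested members lower and 1 higher, with a median of -0.06 (0.17 with the TPM as deposited). Klf6 was at 811, 598 and 937 TPM in WT and 391, 371 and 503 TPM in cKO, without overlap, and fell by 1.12 (SE 0.18, adjusted p 0.00559). Klf3, a transcriptional repressor, was at 107, 59.9 and 87.9 TPM in WT and 54.8, 55.9 and 62.3 TPM in cKO. WT ex vivo 2 lay within the cKO range on the deposited scale, though not after scaling, and Klf3 fell by 0.75 (SE 0.12, adjusted p 0.00637). Klf10 had a log2 change of 0.53 (adjusted p 0.022), called in 1 of 6 fits without a library (adjusted p up to 0.0879 without cKO ex vivo 1).

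The 15 largest falls included Gm17562, mt-Nd3, Tsc22d3 and Rhob. Gm17562 (log2 change -3.02, adjusted p 0.0277) rested on at most 10 reads in any ex vivo library. The mitochondrial gene mt-Nd3 held 13, 15 and 33 reads in the WT ex vivo libraries and 0 in every cKO library, also after stimulation. Its log2 change was -2.69 (adjusted p 0.0304), called in 1 of 6 fits without a library, and the reason for this split by genotype was not tested. Tsc22d3 (GILZ), a leucine zipper protein that glucocorticoids induce, was at 157, 103 and 146 TPM in WT and 61.7, 48.9 and 56.1 TPM in cKO. The groups did not overlap, and it fell by 1.49 (SE 0.17, adjusted p 0.000724). Rhob, a small GTPase induced early by many stimuli, was at 131, 114 and 163 TPM in WT and 53.1, 52.2 and 68.5 TPM in cKO, again without overlap, and fell by 1.45 (SE 0.22, adjusted p 0.00459). Genes of the heat shock and unfolded protein responses did not move together, with 3 of 34 higher, 2 lower and a median of 0.04, and no fit without WT ex vivo 1, WT ex vivo 3 or cKO ex vivo 3 called any of them. Among the cytotoxic genes, Nkg7, a granule membrane protein, had a log2 change of 0.78 (adjusted p 0.0304; kept in 2 of 6 fits, up to 0.115 without cKO ex vivo 1), Serpinb6b, a protease inhibitor, rose by 0.73 (SE 0.11, adjusted p 0.0041), and Ctsw, a cysteine protease, had -0.91 (adjusted p 0.0205; kept in 2 of 6, up to 0.0839 without cKO ex vivo 3).

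Ifitm2 and Ifitm3, membrane proteins that block the entry of viruses into cells, rose ex vivo. They were the 2 tested members of 6 Ifitm genes in the table, the other 4 being under 5 TPM, and Ifitm3 passed the filter only through the cKO groups. Ifitm2 was at 9.02, 6.69 and 9.45 TPM in WT and 97.8, 102 and 116 TPM in cKO and rose by 3.28 (SE 0.14, adjusted p 1.19e-06). Ifitm3 was at 3.94, 1.93 and 5.09 TPM in WT and 41.4, 42.1 and 37.6 TPM in cKO and rose by 3.01 (SE 0.27, adjusted p 0.000185). Every cKO library was over 7 times every WT library in both genes. The coding sequences of the family are close copies, so the division of reads between members is uncertain.

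Of 43 tested genes of the type I interferon list, 1 rose and 3 fell, with a median of -0.01. The falls were Ifit2, Sp100 and Ddx58, kept in 3 of 6, 1 of 6 and 0 of 6 fits without a library (adjusted p up to 0.0813 without WT ex vivo 3, 0.0977 without cKO ex vivo 1 and 0.143 without cKO ex vivo 3). The rise was Ifih1 (MDA5), a sensor of viral RNA (log2 change 0.79, SE 0.12, adjusted p 0.00513). Ifit1 and Irf7, standard members of this response, had log2 changes of -0.09 (adjusted p 0.861) and -0.49 (adjusted p 0.149). Among 17 interferon-inducible GTPases 1 rose (5.88%, near the 5.29% of all tested genes called) and the median was -0.08. It was Gbp3, whose call was kept in 0 of 6 fits without a library (adjusted p up to 0.15 without cKO ex vivo 3). Igtp, Iigp1 and Gbp5, GTPases that act on vacuoles of intracellular microbes, had log2 changes of -0.14, 0.34 and 0.23 (adjusted p 0.74, 0.443 and 0.515). MHC class I genes, also interferon targets, had none of 23 called by limma (2 at an unadjusted p under 0.05) and a median of -0.03. With the TPM as deposited the medians of these 3 lists were 0.23, 0.15 and 0.20, near the 0.21 of all genes, and Ifit1 and Igtp were then above 0.

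After stimulation the type I interferon and GTPase lists stood elsewhere, whereas the MHC class I genes moved little. The latter then had 4 of 23 higher, a median of 0.08 and 0 genes called by the interaction term. There the type I interferon list had 22 members higher and 1 lower, with a median of 0.57, where 6.93% of all tested genes were called, 3.30% higher and 3.63% lower. The GTPases had 16 of 17 higher, with a median of 1.08. For 7 genes of the first list and 9 of the second the genotype effects ex vivo and after stimulation differed by the interaction term of the fit, in each case with the larger effect after stimulation, where 0.451% of all tested genes were called with the ex vivo effect below the stimulated one. The plot of the interferon lists joins the changes of each gene in the 2 states.

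**Figure D4:**
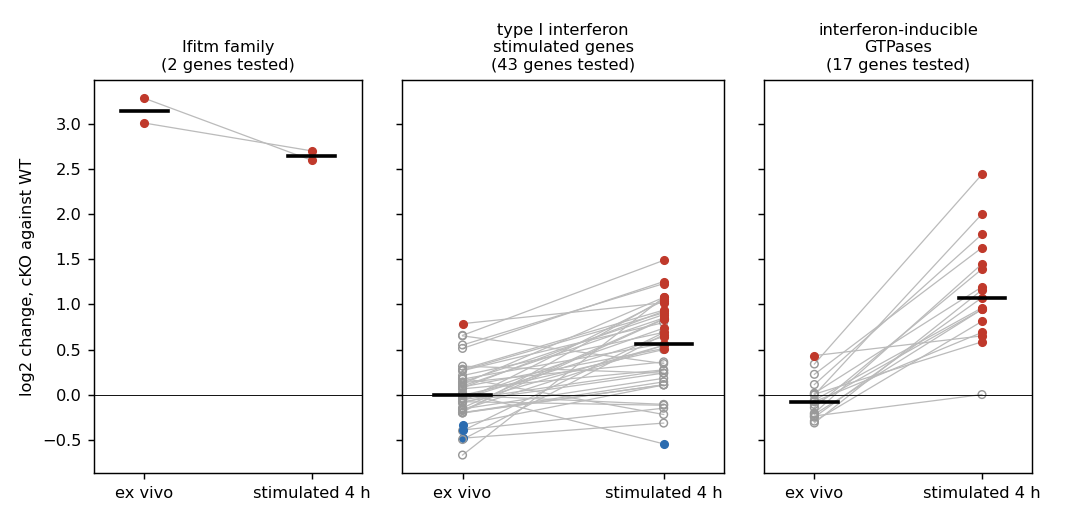
Log2 change (cKO minus WT) of each gene ex vivo and after 4 h of stimulation, joined by a line, for the Ifitm family (2 genes), the type I interferon list (43 genes) and the interferon-inducible GTPases (17 genes). Filled points passed the test and bars are medians, which lie at -0.01 and -0.08 ex vivo and at 0.57 and 1.08 after stimulation for the last 2 lists.

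The RefSeq promoters of the 2 Ifitm genes (GRCm38.p6, 250 bases before to 50 after the start) are shown because these genes rose together while most interferon targets did not pass the test. They lie at chr7:140955912-140956211 (Ifitm2) and chr7:141010695-141010994 (Ifitm3), both on the minus strand. Capitals mark each match to the core letters of interferon response elements, a GAAA, any 2 bases and a second GAAA, searched on both strands.
Ifitm2: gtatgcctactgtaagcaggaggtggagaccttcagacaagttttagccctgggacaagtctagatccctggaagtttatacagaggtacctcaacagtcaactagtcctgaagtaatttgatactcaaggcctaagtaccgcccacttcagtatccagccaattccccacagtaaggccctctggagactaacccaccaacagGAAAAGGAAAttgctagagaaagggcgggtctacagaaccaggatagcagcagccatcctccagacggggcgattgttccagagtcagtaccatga
Ifitm3: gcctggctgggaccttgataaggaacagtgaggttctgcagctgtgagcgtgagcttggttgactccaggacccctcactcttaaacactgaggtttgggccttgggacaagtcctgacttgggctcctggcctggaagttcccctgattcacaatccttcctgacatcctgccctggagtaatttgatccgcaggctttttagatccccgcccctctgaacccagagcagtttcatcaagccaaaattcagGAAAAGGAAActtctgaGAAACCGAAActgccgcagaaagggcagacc
Ifitm2 held 1 match, from -46 to -37, and Ifitm3 held 2, from 2 to 11 and from 19 to 28, counted from the start. These letters occurred in 3.49% of 27025 promoters, in 3.14% of the 7061 promoters of tested genes, in 3.08% of 325 promoters of genes that rose and in 2.94% of 136 of genes that fell. A core of Ikaros sites, TGGGAA on either strand, occurred in 25.5% of all promoters, 22.3% of those of tested genes, 25.2% of those that rose and 22.1% of those that fell, and in neither Ifitm promoter.

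Tmem176a and Tmem176b, which encode ion channel proteins of the MS4A superfamily and lie head to head, also rose as a pair. Tmem176a was at 3.15, 2.43 and 3.15 TPM in WT and 21.6, 19.4 and 22.8 TPM in cKO and rose by 2.30 (SE 0.21, adjusted p 0.000163). Tmem176b was at 4.41, 3.48 and 5.0 TPM in WT and 21.1, 24.4 and 22.7 TPM in cKO and rose by 1.96 (SE 0.11, adjusted p 7.18e-06). Each cKO library was over 4 times each WT library in both genes. Their RefSeq promoters (GRCm38.p6; chr6:48841233-48841532, plus strand, and chr6:48841088-48841387, minus strand) are shown because they overlap, with the shared 155 bases in capitals. Neither motif searched occurred in these windows.
Tmem176a: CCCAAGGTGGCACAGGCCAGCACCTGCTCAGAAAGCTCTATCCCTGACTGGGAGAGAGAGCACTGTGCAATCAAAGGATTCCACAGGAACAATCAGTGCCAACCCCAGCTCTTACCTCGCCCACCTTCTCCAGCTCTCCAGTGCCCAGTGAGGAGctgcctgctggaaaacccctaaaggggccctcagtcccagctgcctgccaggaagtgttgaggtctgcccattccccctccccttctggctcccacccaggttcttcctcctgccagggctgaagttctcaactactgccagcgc
Tmem176b: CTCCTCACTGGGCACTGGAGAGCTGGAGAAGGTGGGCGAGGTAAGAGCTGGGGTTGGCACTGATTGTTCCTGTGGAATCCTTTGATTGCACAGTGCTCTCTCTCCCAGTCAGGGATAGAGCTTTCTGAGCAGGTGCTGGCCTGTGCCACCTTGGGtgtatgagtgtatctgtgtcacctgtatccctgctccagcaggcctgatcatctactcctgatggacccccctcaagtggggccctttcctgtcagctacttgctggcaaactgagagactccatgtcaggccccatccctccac

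The related Ms4a genes and the PYHIN family, sensors of nucleic acids, were singled out after their values were seen. Of 4 tested Ms4a genes Ms4a6c rose by 1.28 (SE 0.10, adjusted p 5.78e-05), whereas Ms4a4b, Ms4a6b (log2 change -0.56, SE 0.11, adjusted p 0.0118) and Ms4a4c fell. The Ms4a4c log2 change was -0.96, called in 4 of 6 fits without a library (adjusted p up to 0.0591 without cKO ex vivo 3). Of 6 tested PYHIN genes 3 fell and none rose. Pydc3 fell by 2.34 (SE 0.39, adjusted p 0.00637) and Pyhin1 fell by 0.63 (SE 0.10, adjusted p 0.00503), and Pydc4 had -0.73, kept in 2 of 6 fits (adjusted p up to 0.0785 without cKO ex vivo 3). Both families hold close copies between which reads may be divided.

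Of the MHC class II genes, 4 passed the filter, 2 rose and 1 fell. Cd74, the invariant chain that class II molecules need for assembly, was at 42.2, 33.1 and 43.7 TPM in WT and 90.6, 98.2 and 109 TPM in cKO and rose by 1.07 (SE 0.15, adjusted p 0.0029), with no overlap. H2-Ob, a chain of the H2-O protein that limits peptide loading, was at 14, 9.85 and 14.5 TPM in WT and 6.21, 6.21 and 6.44 TPM in cKO. It fell by 1.11 (SE 0.12, adjusted p 0.000681), while its partner H2-Oa had 0.80, called in 1 of 6 fits without a library (adjusted p up to 0.0933 without cKO ex vivo 3). B cells express these genes strongly, and the summed TPM of 12 B cell markers, given above, was higher in every cKO library. None of the 4 markers tested was called by limma, and 3 had an unadjusted p under 0.05. Igkc, an immunoglobulin light chain, overlapped between the groups and had a log2 change of -0.76 (adjusted p 0.479). Cd79b and Ighm, chains of the B cell receptor, had log2 changes of 0.70 (adjusted p 0.112) and 0.27 (adjusted p 0.229). The part of B cell RNA in the class II values was not tested.

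Cytosolic ribosomal protein genes lay mostly below 0. Of 80 tested, 76 were below 0 and the median was -0.32. Of the list, 10 fell and none rose, which is 12.5% of the list against 1.67% of all tested genes. In 34 of the 80 the scaled values did not overlap and were lower in cKO, against 9.95% of all tested genes. On the deposited scale none of the 80 had all cKO libraries below the WT libraries, and 2 had them all above. Rpl19 (log2 change -0.54, SE 0.10, adjusted p 0.0132) and Rps27 (log2 change -0.71, SE 0.14, adjusted p 0.0179) fell most. Leaving out a library left 2 to 6 calls, with 2 without WT ex vivo 3 and 2 without cKO ex vivo 2, and the Rps27 adjusted p reached 0.07 without cKO ex vivo 3. With the TPM as deposited 60 were below 0, none was called and the list median was -0.09 beside 0.21 for all tested genes, against -0.32 beside -0.01 after scaling. The host genes of small nucleolar RNAs, chosen after their values were seen, fell in 3 of 8, but 3 others of the 8 had a higher mean in cKO on the deposited scale. The largest of the falls was Snhg12, at 25.2 ± 6.88 TPM in WT and 14.3 ± 0.141 TPM in cKO (log2 change -0.96, SE 0.10, adjusted p 0.000596), whose reads may include those of the small RNAs in its introns.

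Cell cycle genes were above 0 in 40 of 42 tested members, with a median of 0.32, but 1 was called. Of the 42, 8 passed the filter only through the cKO groups. The call was Kif11, a spindle motor (log2 change 0.64, SE 0.16, adjusted p 0.0378), kept in 0 of 6 fits without a library (adjusted p up to 0.124 without cKO ex vivo 3). Mki67, the proliferation marker, was at 25.6 ± 4.73 TPM in WT and 54.1 ± 1.27 TPM in cKO and did not pass (log2 change 0.83, SE 0.25, adjusted p 0.0916). In 25 of the 42 the libraries did not overlap, all higher in cKO, where 11.6% of all tested genes were so. Cdkn1a (p21), an inhibitor of the cycle, rose by 1.07 (SE 0.17, adjusted p 0.00535).

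Of 30 genes of glycolysis and of the hypoxia response 1 rose and 3 fell, which is 13.3% of the list against 5.29% of all tested genes, and no fall was called with the TPM as deposited. Hk2, the inducible hexokinase, rose by 0.80 (SE 0.13, adjusted p 0.00637), while Gapdh fell by 0.55 (SE 0.09, adjusted p 0.00637) and Pdk1, the kinase that keeps pyruvate from the mitochondria, fell by 0.53 (SE 0.09, adjusted p 0.0088). The third fall was P4ha1, a prolyl hydroxylase of collagen that hypoxia induces and no glycolytic enzyme (log2 change -0.60, SE 0.08, adjusted p 0.00172). Nuclear genes of oxidative phosphorylation had 1 of 73 lower and a median of -0.05. The call was Ndufb9, a subunit of complex I, kept in 1 of 6 fits without a library (adjusted p up to 0.102 without WT ex vivo 3). Limma called none of 29 cholesterol, 7 pentose phosphate and 15 BCL2 family genes, of which 3, 1 and 4 had an unadjusted p under 0.05. None of 16 genes of the NuRD complex and none of 11 TET and DNMT genes, which act on DNA methylation, were called by limma, with 2 and 3 at an unadjusted p under 0.05 and medians of 0.04 and 0.08. Tet1, a member of the TET list that removes DNA methylation, was under the filter, at 3.30 ± 0.243 TPM in WT and 2.83 ± 0.354 TPM in cKO. Amino acid transporters rose in 3 of 13 (23.1%, against 3.62% of all tested genes called higher), led by Slc43a1, a carrier of large neutral amino acids (log2 change 1.06, SE 0.16, adjusted p 0.00382).

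Set beside the effect after 4 h of stimulation, some of the genes above differed between the states by the interaction term, which called 1.10% of all tested genes. Jun fell ex vivo but had a log2 change of 0.61 after stimulation (difference -1.89, adjusted p 0.0172). Cxcr3 and Klrg1 rose ex vivo and had 0.14 and 0.19 after stimulation (differences 0.86, adjusted p 0.0164, and 0.67, adjusted p 0.0454). Nfkbia had -0.09 after stimulation (difference 0.98, adjusted p 0.0494). Foxp3 did not pass this test (difference -1.08, adjusted p 0.0675), with 0.96 (adjusted p 0.00847) after stimulation and -0.12 ex vivo.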

How the data were processed

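Per the labels and the study's methods, the authors depleted ribosomal RNA, made stranded libraries, sequenced paired ends of 51 bases, aligned them to mm9 with STAR 2.6.0c and assigned them to the exons of Ensembl genes by strand with HTSeq 0.6.1. The deposited signal is TPM per gene and library, beside log2 values that the authors made after adding the worth of 1 read, from which 99.9977% of values gave a read number within 0.01 of a whole. A second deposited table holds the authors' own comparisons (log2 fold changes, F scores, p-values, false discovery rates) and was not used.

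From the TPM, genes that averaged 5 TPM or more in some group were kept and scaled by a trimmed mean of M-values (30% of M and 5% of A trimmed). Then log2(scaled TPM + 1) was fitted in R 4.3.3 with limma 3.58.1 (trend, group only, all 12 libraries, which share 1 estimate of the spread), with Benjamini-Hochberg adjustment over 13318 genes. The study's count model was not used here.

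Named genes were drawn from the 5 Ikaros family genes, up to 6 called members per list with abundant members not called, the 15 largest rises and 15 largest falls, the 10 most abundant called genes and genes that the study's text names. Not every gene under this rule is reported here. The members and lists were chosen with earlier results of these data known. Named after their values were seen were Ms4a6b, Ms4a6c, Ms4a4c, Pydc4, Pyhin1 and Snhg12, and others that help describe a list, such as Ahr, Prdm1, Axin2 and Tgfbr1. Promoters came from a RefSeq table of GRCm38.p6, in which 7061 tested genes matched by symbol, and gene positions from an Ensembl-based annotation of mm9. Alternatives were other filters, pseudocounts, scalings, variance models, a replicate block and leaving out each ex vivo library. Some list members are counted but not reported here by name.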

Additional observations from a re-analysis of the deposited data

Results flagged for a closer look

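The genotype effect (cKO minus WT, log2) ex vivo minus that after stimulation passed the test of the interaction term (limma, adjusted p under 0.05 over all tested genes) for 25 named genes, beside 1.10% of all tested genes. The interferon-inducible GTPases had the smaller effect ex vivo, with differences of -2.10 (Iigp1), -1.53 (Igtp) and -1.40 (Gbp5). The differences were also below 0 for Jun (-1.89), Treml2 (-1.27), the signalling subunit Pik3r5 (-0.93), Slfn8 of the Schlafen family (-0.82), the ligase Znrf3 (-0.59) and the collagen hydroxylase P4ha1 (-0.53). They were -3.16 for Mir1970 and -2.66 for AC163629.1, each of which rested on at most 8 reads in any ex vivo library.

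The differences were above 0, with the larger value ex vivo, for the NF-kB genes Nfkbie (1.25), Nfkbia (0.98) and Relb (0.89). Those of Bcl6 (1.65), Socs5 (0.75), Cxcr3 (0.86), Klrg1 (0.67), S1pr2 (0.72) and the prostaglandin receptor Ptger2 (0.81) were of the same sign. For Bcl6 the difference came with a fall of 1.38 after stimulation (adjusted p 0.00151), beside 0.27 ex vivo (adjusted p 0.518). So were those of Ahnak (1.17), Anxa2 (1.04), Itgb1 (0.85), Dusp14 (1.15) and the amino acid transporter Slc38a1 (0.74).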

How the results depend on the processing

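The 704 calls became 57 with genes down to 1 TPM (44 higher, 13 lower), 56 with no filter (44 and 12), 273 with the TPM as deposited (260 and 13) and 401 with the 6 ex vivo libraries alone (309 and 92). Testing genes from 10 TPM gave 398 lower. Of the 57 and 273, 50 and 258 were among the 704. Leaving out 1 library gave 331 to 513 in all, 241 to 375 higher and 90 to 173 lower. Of the genes named by the rule, 22 had an interaction called, against 40 from 10 TPM, 12 as deposited, 41 with quantile and 35 with upper quartile scaling and 9 to 19 with a library left out. The number was 0 by limma from 1 TPM and with no filter. The replicate block gave 516 calls in all (375 higher, 141 lower) and 11 interactions. Deviations of same-numbered libraries correlated at 0.149, 0.257 and 0.078, each library best with its own number, which is a hint from the data only.

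Ikzf1 kept its call in every alternative. Of the single gene values under alternatives, 2985 kept direction and call, 957 lost the call, 23 gained one and 7 reversed. None of the reversed values was called. With the TPM as deposited Ctla4 was at 0.064, Foxp3 at 0.11, Ifit1 at 0.12, Igtp at 0.095 and Ikzf5 at 0.085, and Ctla4 was at 0.019 with quantile scaling. With a library left out Ifit1 ranged from -0.16 (cKO ex vivo 2) to 0.029 (cKO ex vivo 1). The cause was not tested. With 3 libraries a group, p-values for genes of few reads are of low precision.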
